A study of Oryctolagus cuniculus with 134 samples.

Results

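HLA-DRA, HLA-DMA and CD74 are genes of the major histocompatibility complex (MHC) class II pathway. They were found by their symbols in the deposited gene counts of rabbit aorta and heart valves, where all 3 are present among 29587 genes, of which 14716 have a symbol. The symbols are those of the matching human genes. The rabbit gene identifiers are ENSOCUG00000009103 for HLA-DRA, ENSOCUG00000022573 for HLA-DMA and ENSOCUG00000003863 for CD74.

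MHC class II molecules are pairs of an alpha and a beta chain that hold peptides from engulfed proteins on the cell surface, where CD4+ T cells read them. HLA-DRA encodes the alpha chain of HLA-DR. CD74, the invariant chain, binds newly made class II molecules and escorts them to the endosomal compartment, and HLA-DMA encodes a chain of HLA-DM, which swaps the last fragment of CD74 for an antigenic peptide. Macrophages, dendritic cells and B cells make these proteins constantly, other cells such as endothelium can make them after interferon gamma, and HLA-DR is a long-known mark of activated cells in the atherosclerotic plaque.

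RNA came from tissue samples of 27 male New Zealand White rabbits, with 1 library per sample, in the proximal aorta (Ao), the aortic valve (AoV), the mitral valve (MV), the pulmonary valve (PV) and the tricuspid valve (TV). The protocol started at 12 weeks of age and lasted 16 weeks. The control rabbits (Ctrl) ate chow, the CHT rabbits a diet with 0.3% cholesterol and the Lard rabbits a diet with 5% lard. The IR/CHT rabbits ate the CHT diet and, after 8 weeks, received X-ray irradiation of 24 Gy in 3 fractions of 8 Gy, aimed at the aortic valve and thoracic aorta. The CHT, Lard and IR/CHT rabbits all received vitamin D2 for 15 days (25000 U per day, scaled to body weight), and the Ctrl rabbits did not. A difference from Ctrl is therefore one of diet and vitamin D2, and for IR/CHT also of irradiation, which cannot be told apart here, whereas Lard and IR/CHT were also compared with CHT at the same vitamin D2. Each tissue has 7 Ctrl, 6 CHT, 7 Lard and 7 IR/CHT libraries, except for 6 Ctrl libraries in the MV.

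The libraries hold between 13564979 and 50577676 read pairs on genes (median 18235577). The members were counted in every library, with 327 to 47320 read pairs for CD74 (median 2754.5), 66 to 14877 for HLA-DRA (median 587.5) and 12 to 2917 for HLA-DMA (median 106). Levels are given in CPM (read pairs per 1000000 on genes) after TMM scaling of all libraries together, a scaling that makes the bulk of genes comparable between libraries. CPM values do not account for gene length and are compared only within a gene. The aorta libraries were all made on plate 2 and the CHT libraries of the AoV and MV all on plate 1, whereas all other groups of the valves were split between both plates. Of the PV, 2 IR/CHT libraries stand apart by cell type markers. In rabbit L28376, the summed level of the 5 smooth muscle markers found was 19630 CPM, against 273.7 to 1878 CPM in the other 6 libraries of its group, and in rabbit L28421 the 9 endothelium markers summed to 107.7 CPM, against 1107 to 1525 CPM. Whether they differ by dissection or by a mix-up of labels cannot be told apart.

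On chow, the members were lowest in the aorta. In bulk tissue, more cells of a type and more RNA per cell cannot be told apart. HLA-DRA ranged from 4.24 to 20.4 CPM in the Ao (median 5.65), from 7.56 to 25.3 CPM in the AoV (14.4), from 17.8 to 81.4 CPM in the MV (46.2), from 11.1 to 37.1 CPM in the PV (23.3) and from 7.76 to 44.6 CPM in the TV (22.01). The Ao library of rabbit L08273 held the highest value there, and its next highest neighbour was at 9.75 CPM. HLA-DMA ranged from 0.772 to 1.74 CPM in the Ao (median 1.21) and from 3.69 to 10.4 CPM in the MV (7.38). CD74 ranged from 20.6 to 59.1 CPM in the Ao (median 27.6) and from 118 to 336 CPM in the MV (195.6). For HLA-DMA and CD74, no MV library on chow fell into the range of the Ao, while a single Ao library reached that of the MV for HLA-DRA.

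In edgeR's quasi-likelihood test over the 34 chow libraries, all 3 members were called higher in each valve than in the aorta. A call means a fold change over 1.5 at an adjusted p under 0.05. The difference in log2 level from the Ao was largest in the MV, with 2.52 ± 0.40 (SE) for HLA-DRA, 2.41 ± 0.28 for HLA-DMA and 2.67 ± 0.32 for CD74. It was 0.98, 1.89 and 1.68 in the AoV, 1.54, 1.80 and 1.59 in the PV and 1.58, 1.29 and 1.75 in the TV, in the same order of genes. Tissues differ in many genes: 29.2% of the genes tested were called higher in the AoV than in the Ao, 18.5% in the MV, 16.9% in the PV and 18.5% in the TV. Between valves, HLA-DRA was higher in the MV than in the AoV (log2 difference 1.54, adjusted p = 0.0243), CD74 was lower in the PV than in the MV (-1.07, adjusted p = 0.0129) and HLA-DMA was lower in the TV than in the MV (-1.12, adjusted p = 0.00896). These calls stand beside 1.39% of genes called higher in the MV than in the AoV, 19.0% lower in the PV than in the MV and 1.39% lower in the TV than in the MV. With the rabbit as a block, which compares tissues within an animal, CD74 MV against AoV (1.001, adjusted p = 0.0163), HLA-DMA TV against AoV (-0.65, adjusted p = 0.0130), HLA-DRA and HLA-DMA PV against MV (-0.87 and -0.60, adjusted p = 0.0265 and 0.0321) and CD74 TV against MV (-1.02, adjusted p = 0.00677) were called too. No member was called between PV and AoV, TV and AoV or TV and PV without the block, where 48.2%, 38.2% and 10.7% of genes were called in either direction. Some other settings added calls here, of HLA-DMA between TV and AoV with DESeq2's size factors (-0.63) and of HLA-DRA in the PV and TV against the AoV with the plate as a covariate (0.82 and 0.77).

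The cholesterol diet was compared with chow to ask how the diet changes the artery and each valve. In the aorta, all 3 members rose by more than an order of magnitude. HLA-DRA, at 4.24 to 20.4 CPM on chow, was at 73.7 to 253 CPM on CHT (median 220). HLA-DMA rose to between 22.5 and 48.1 CPM (median 35.2), and CD74 to between 232.2 and 821 CPM (median 671). The lowest CHT library, that of rabbit L09355 for each member, lay above every Ctrl library, so the groups did not overlap for any member. The log2 fold change was 4.63 ± 0.45 for HLA-DRA (24.8-fold), 4.80 ± 0.35 for HLA-DMA (27.8-fold) and 4.27 ± 0.40 for CD74 (19.3-fold), with adjusted p between 6.07e-10 and 2.11e-08. Of all genes tested in the Ao, 14.2% were called higher. How many of all genes had groups without overlap was not counted, here or in the other comparisons.

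In the aortic valve, HLA-DRA went from 7.56 to 25.3 CPM on chow to 84.7 to 209 CPM on CHT (median 173.3). HLA-DMA went from 3.73 to 7.00 CPM to 23.1 to 54.6 CPM (median 34.0), and CD74 from 50.3 to 140 CPM to 386 to 891 CPM (median 581.6). Again no CHT library overlapped with Ctrl, and the lowest was that of rabbit L09670 for each member. On the log2 scale the change was 3.35 ± 0.35 for HLA-DRA, 2.84 ± 0.26 for HLA-DMA and 2.54 ± 0.30 for CD74, where 8.42% of genes were called higher. On plate 1 alone, which holds all CHT libraries, it was 3.68, 2.96 and 2.86.

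In the mitral valve, the members rose from a higher level on chow. HLA-DRA reached 83.7 to 220 CPM on CHT (median 176.5), HLA-DMA 14.3 to 44.0 CPM (median 32.5) and CD74 336 to 792 CPM (median 619), and rabbit L09670 was the lowest for each member as in the AoV. The CHT libraries of HLA-DRA and HLA-DMA were all above the Ctrl libraries, and for CD74 5 of 6 were. All 3 were called, with a log2 fold change of 1.87 ± 0.38 for HLA-DRA, 2.14 ± 0.36 for HLA-DMA and 1.49 ± 0.34 for CD74 (adjusted p = 0.00202, 0.000273 and 0.00512), among 4.98% of genes called higher. Plate 1 alone gave 2.33, 2.29 and 1.89.

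In the valves of the right heart no rise of a member was called on CHT. In the PV, HLA-DRA was at 20.9 to 37.0 CPM on CHT against 11.1 to 37.1 CPM on chow, HLA-DMA at 3.41 to 6.31 against 3.33 to 6.24 CPM and CD74 at 64.4 to 234.6 against 56.9 to 139 CPM. In the TV, HLA-DRA was at 16.1 to 31.3 CPM against 7.76 to 44.6 CPM, HLA-DMA at 1.83 to 6.34 against 1.55 to 5.38 CPM and CD74 at 81.5 to 143 against 45.7 to 204 CPM. The groups overlapped for each member in both valves. The log2 fold changes lay between -0.07 and 0.38 in the PV and between -0.10 and 0.27 in the TV, with SE of 0.25 to 0.33, and none was called, where 0.159% and 0.163% of genes were called in either direction.

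**Figure D1:**
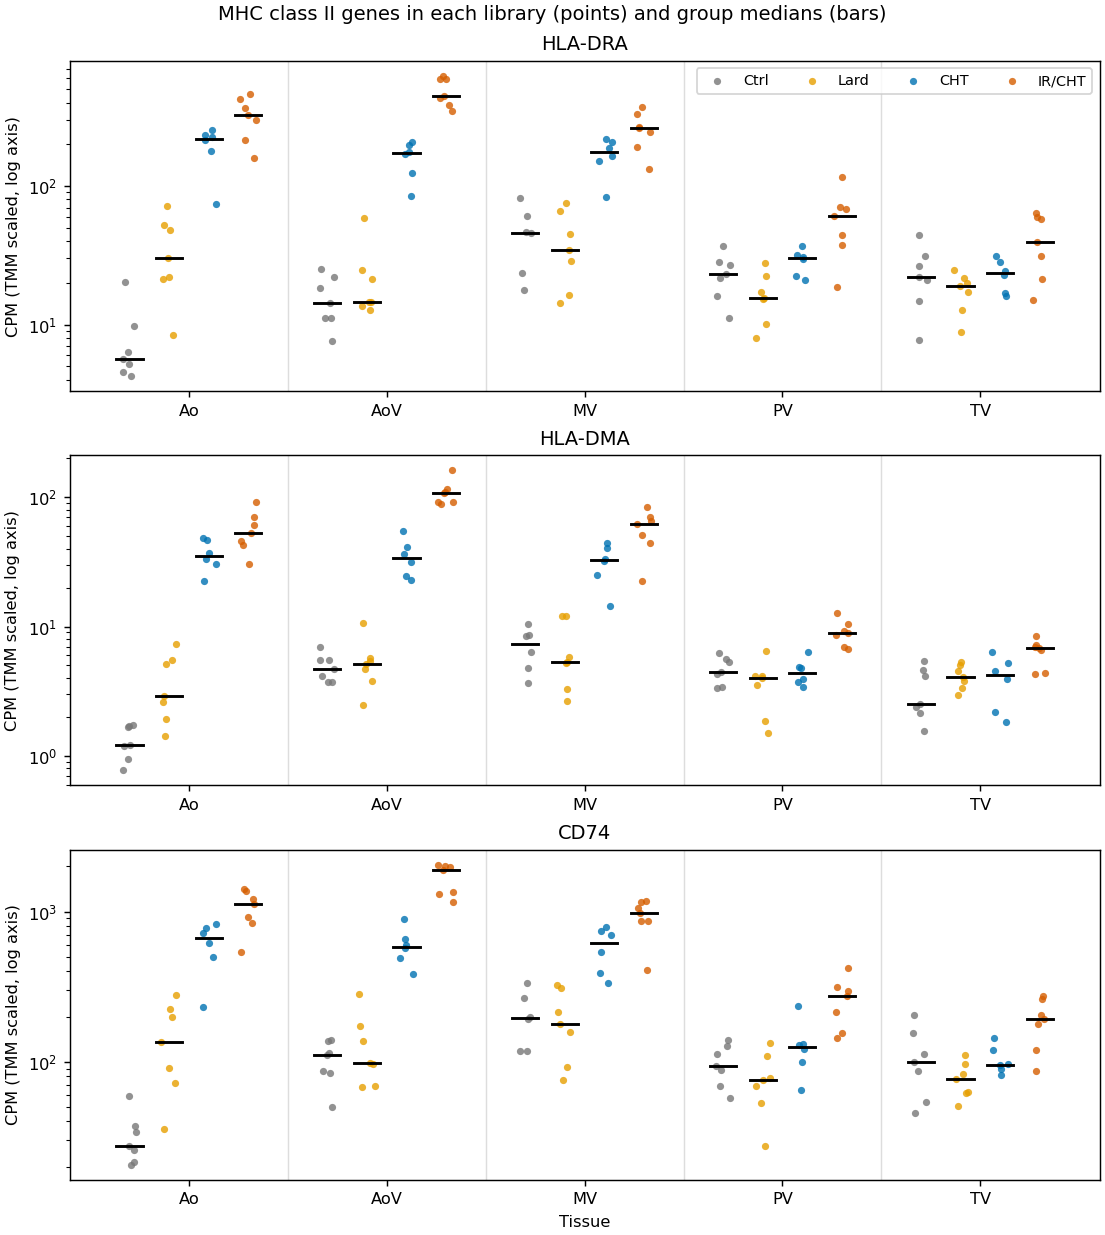
HLA-DRA, HLA-DMA and CD74 in CPM (log axis) in each library, by tissue and treatment, with 1 point per library and a bar at each group's median. The CHT and IR/CHT points of the Ao, AoV and MV stand above the Ctrl points of their tissue, with an overlap for CD74 in the MV, while those of the PV and TV overlap with theirs, other than HLA-DMA and CD74 in IR/CHT of the PV.

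On the lard diet, no change of a member from chow was called in the valves. In the AoV, HLA-DRA was at 12.7 to 58.8 CPM on Lard (median 14.5), HLA-DMA at 2.47 to 10.7 CPM (median 5.12) and CD74 at 67.3 to 285 CPM (median 98.5). The highest Lard library of all 3 was that of rabbit L09448, which was also the highest Lard library of all 3 in the Ao. The log2 differences from Ctrl were 0.15 to 0.54 in the AoV, -0.20 to -0.09 in the MV, -0.51 to -0.34 in the PV and -0.53 to 0.32 in the TV. Without the AoV library of rabbit L09448 the AoV values were 0.095 for HLA-DRA, -0.12 for HLA-DMA and 0.048 for CD74. Over all genes, 0.234% were called in either direction in the AoV. In the MV, PV and TV the share was 0%, where edgeR called 0 genes while 253, 360 and 1200 had an unadjusted p under 0.05, and DESeq2 also called 0.

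In the aorta the members were higher on Lard than on chow, at a lower level than on CHT. HLA-DRA ranged from 8.37 to 72.1 CPM (median 30.01), HLA-DMA from 1.43 to 7.33 CPM (median 2.92) and CD74 from 35.5 to 277.2 CPM (median 136). The groups overlapped, and 6 of 7 Lard libraries were above all Ctrl libraries for each member. The log2 difference from Ctrl was 2.19 ± 0.41 for HLA-DRA, 1.55 ± 0.33 for HLA-DMA and 2.21 ± 0.37 for CD74 (adjusted p = 0.00444, 0.00979 and 0.00192), where 2.57% of genes were called higher. With the Lard and Ctrl libraries alone in the model, the log2 fold changes were 2.22, 1.55 and 2.22, and none was called (adjusted p = 0.0653, 0.0796 and 0.0562).

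Lard and CHT, which share the vitamin D2, were compared directly. The members were lower on Lard in the Ao, the AoV and the MV, with a log2 change of -2.44 ± 0.41, -2.81 ± 0.34 and -2.07 ± 0.36 for HLA-DRA, of -3.25 ± 0.32, -2.70 ± 0.26 and -2.24 ± 0.35 for HLA-DMA and of -2.06 ± 0.37, -2.18 ± 0.29 and -1.59 ± 0.32 for CD74. All 9 were called, and the groups did not overlap in 8 of them, a count not made over all genes. CD74 in the Ao was the exception, with the highest Lard library at 277.2 CPM and the lowest CHT library at 232.2 CPM. The share of genes called lower was 7.33% in the Ao, 7.16% in the AoV and 5.29% in the MV. On plate 1 alone, the values were -2.42, -2.37 and -2.05 for HLA-DRA, HLA-DMA and CD74 in the AoV and -2.12, -2.21 and -1.66 in the MV, where CD74 was no longer called (adjusted p = 0.0709). In the PV and TV no member was called, where 0.152% and 0.0884% of genes were called in either direction.

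In every tissue, the IR/CHT group had the highest mean of each member. In the aortic valve, HLA-DRA was at 351 to 622 CPM (median 445), HLA-DMA at 88.0 to 161.3 CPM (median 108) and CD74 at 1163 to 2053 CPM (median 1880). The log2 fold change from Ctrl was 4.94 ± 0.37 for HLA-DRA (30.8-fold), 4.47 ± 0.27 for HLA-DMA (22.1-fold) and 4.02 ± 0.31 for CD74 (16.2-fold), where 21.1% of genes were called higher. In the aorta, where 22.2% were, HLA-DRA was at 159.3 to 465 CPM (median 324), HLA-DMA at 30.3 to 92.4 CPM (median 53.1) and CD74 at 534 to 1411 CPM (median 1121). There the log2 fold change was 5.37 ± 0.46, 5.46 ± 0.35 and 5.09 ± 0.42. In the mitral valve, HLA-DRA was at 133 to 374 CPM (median 260.9), HLA-DMA at 22.6 to 84.5 CPM (median 62.4) and CD74 at 406 to 1181 CPM (median 982), with rabbit L28376 lowest for each. Against Ctrl the log2 fold change was 2.45 ± 0.38, 2.98 ± 0.37 and 2.15 ± 0.34, where 11.1% of genes were called higher. All 9 changes were called and no IR/CHT library of these tissues overlapped with Ctrl. On plate 2 alone HLA-DRA in the MV was not called (1.85, adjusted p = 0.0763), against 2.92 on plate 1.

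In the pulmonary valve, the members were also higher in IR/CHT than in Ctrl. HLA-DRA was at 18.8 to 117 CPM (median 60.9), HLA-DMA at 6.73 to 12.8 CPM (median 8.96) and CD74 at 143 to 420 CPM (median 273.4). The groups did not overlap for HLA-DMA and CD74, and for HLA-DRA 6 of 7 IR/CHT libraries were above all Ctrl libraries. The changes on the log2 scale were 1.34 ± 0.31 for HLA-DRA, 0.97 ± 0.24 for HLA-DMA and 1.41 ± 0.30 for CD74 (adjusted p = 0.0306, 0.0478 and 0.0185), among 0.581% of genes called higher. Leaving out any 1 of the 14 libraries in turn, the call was lost in 12 cases for HLA-DMA, 8 for HLA-DRA and 2 for CD74, and without the filter on low counts HLA-DRA and HLA-DMA were not called (adjusted p = 0.0606 and 0.0714). The library of rabbit L28376 with the high smooth muscle markers was the highest for each member, and that of rabbit L28421 with the low endothelium markers the lowest. Without the former the values were 1.10, 0.87 and 1.25, and none was called (adjusted p = 0.0945, 0.131 and 0.0627). Without the latter they were 1.498, 1.03 and 1.51, and all were called (adjusted p = 0.00453, 0.0293 and 0.00876). Plate 2 alone, with 2 libraries a group, gave 0.31, 0.70 and 0.72 and plate 1 alone 1.64, 1.08 and 1.64.

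In the tricuspid valve, HLA-DRA was at 15.0 to 64.2 CPM in IR/CHT (median 39.4), HLA-DMA at 4.28 to 8.47 CPM (median 6.79) and CD74 at 87.1 to 272.2 CPM (median 192.8), and the groups overlapped with Ctrl for each. The log2 differences were 0.77 to 0.94 and were not called (adjusted p = 0.246 to 0.507), where 0.231% of genes were called in either direction. They differed between plates. On plate 1 alone, HLA-DRA, HLA-DMA and CD74 were called with 1.51, 1.504 and 1.54 (adjusted p = 0.0229, 0.0125 and 0.00570), while plate 2 alone gave -0.65, 0.02 and -0.50.

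IR/CHT was compared with CHT to ask what the irradiation adds at the same diet and vitamin D2. In edgeR's test, the AoV is the tissue in which the members were called. HLA-DRA rose from 84.7 to 209 CPM on CHT to 351 to 622 CPM, HLA-DMA from 23.1 to 54.6 CPM to 88.0 to 161.3 CPM and CD74 from 386 to 891 CPM to 1163 to 2053 CPM. No library of one group reached the range of the other. The rise on the log2 scale was 1.59 ± 0.33 for HLA-DRA (3.01-fold), 1.62 ± 0.25 for HLA-DMA (3.08-fold) and 1.47 ± 0.29 for CD74 (2.78-fold), with adjusted p of 0.00102, 5.76e-05 and 0.000649, where 9.9% of genes were called higher. On plate 1 alone all 3 were called as well, with 1.46, 1.72 and 1.21 (adjusted p = 0.0152, 0.00121 and 0.0327).

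In the other tissues the log2 differences between IR/CHT and CHT were above 0, and none was called. The log2 difference was 0.74 ± 0.40, 0.67 ± 0.29 and 0.82 ± 0.37 in the Ao for HLA-DRA, HLA-DMA and CD74, with 4 to 6 of 7 IR/CHT libraries above all CHT libraries. It was 0.58 ± 0.36, 0.84 ± 0.34 and 0.66 ± 0.32 in the MV, 1.08 ± 0.32, 1.04 ± 0.25 and 1.03 ± 0.31 in the PV and 0.84 ± 0.34, 0.67 ± 0.30 and 0.88 ± 0.30 in the TV. The adjusted p lay between 0.183 and 0.264 in the Ao, 0.291 and 0.498 in the MV and 0.0712 and 0.0944 in the PV, and was 0.480 in the TV. Few genes were called in these comparisons: 0.596% in the Ao, 0.189% in the MV, 0.0761% in the PV and 0% in the TV, where edgeR called 0 genes with 1323 at an unadjusted p under 0.05 and DESeq2 called 9. In the PV, HLA-DMA of all 7 IR/CHT libraries was above that of all CHT libraries, and DESeq2, which called 466 genes there against 11 by edgeR, called HLA-DRA, HLA-DMA and CD74 (1.07, 1.03 and 1.02, adjusted p = 0.0225, 0.00446 and 0.0237). Plate 2 alone gave 0.19, 1.27 and 0.065 for HLA-DRA, HLA-DMA and CD74 in the PV and -0.34, 0.58 and 0.030 in the TV, none called, against 1.32, 0.94 and 1.48 and 1.46, 0.77 and 1.36 on plate 1.

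**Figure D2:**
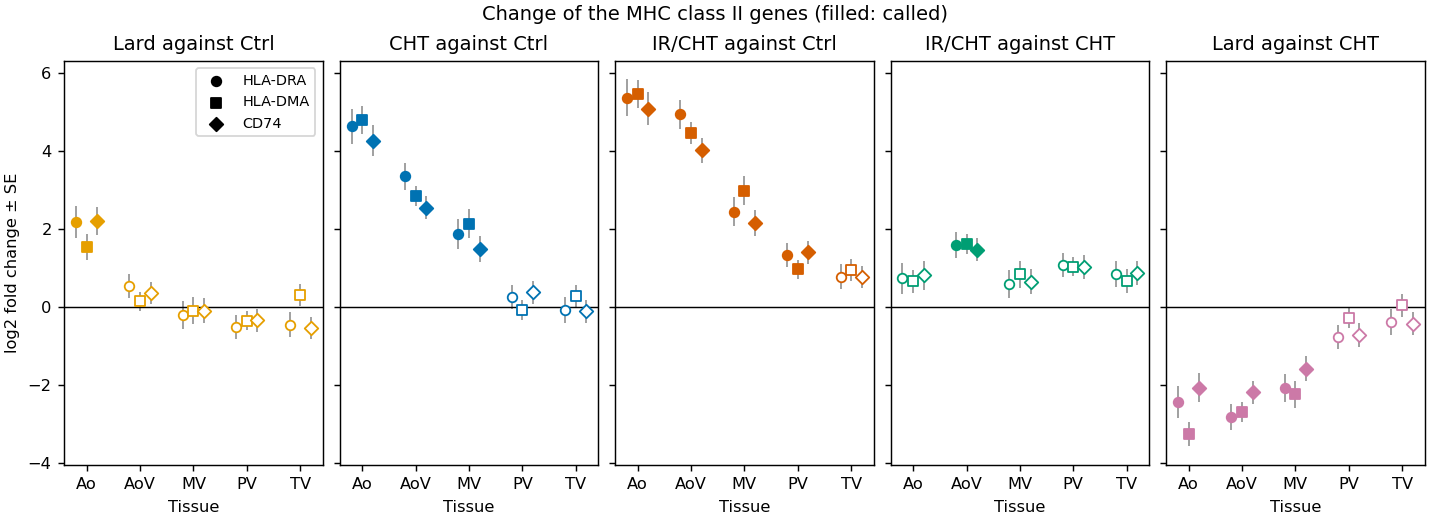
Log2 fold change with its SE (bars) of HLA-DRA, HLA-DMA and CD74 in the 5 tissues, 1 panel per comparison, with filled symbols for called changes. Against Ctrl the values on CHT fall from 4.27 to 4.80 in the Ao to between -0.10 and 0.38 in the PV and TV, and the AoV is the one tissue with filled symbols in IR/CHT against CHT.

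Whether the change differed between tissues was tested as an interaction in a model that held both tissues, where a call needs only the adjusted p under 0.05. The change on CHT was smaller in the AoV than in the Ao for HLA-DMA (log2 difference of the changes -2.02 ± 0.41) and CD74 (-1.79 ± 0.48), and that of HLA-DRA was not called (-1.33 ± 0.53, adjusted p = 0.116), where 4.25% of genes were called lower. The median over all genes tested was itself below 0 here, at -0.13. For HLA-DMA, mean levels on CHT were 36.3 CPM in the Ao and 35.2 CPM in the AoV, against 1.32 and 4.91 CPM on chow. For CD74 they were 612 and 599 CPM on CHT, against 32.2 and 103 CPM on chow. For IR/CHT, with a median of -0.29 and 21.7% of genes called lower, HLA-DMA and CD74 were called again (-1.13 ± 0.40 and -1.21 ± 0.46), and HLA-DRA was not (-0.55 ± 0.51). Without the filter on low counts neither was called (-1.001 and -1.08, adjusted p = 0.0663 and 0.0922), nor was CD74 with DESeq2's size factors (-1.12, adjusted p = 0.0523). The MV and AoV were not told apart in their change on CHT (-1.52, -0.72 and -1.07 for HLA-DRA, HLA-DMA and CD74, adjusted p = 0.304, 0.447 and 0.435), where edgeR called 0% of genes and 1816 genes had an unadjusted p under 0.05. With the rabbit as a block, HLA-DRA and CD74 were called there (-1.36 and -1.10, adjusted p = 0.0347 and 0.0485). The change in IR/CHT was smaller in the MV than in the AoV for all 3 (-2.46 ± 0.50, -1.44 ± 0.43 and -1.82 ± 0.44), where 7.26% of genes were called lower.

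For the changes from Ctrl, PV and AoV differed the most of the 4 pairs of tissues tested. On CHT the change was smaller in the PV by a log2 difference of -3.07 ± 0.47 for HLA-DRA, -2.89 ± 0.36 for HLA-DMA and -2.14 ± 0.44 for CD74, where 4.01% of genes were called lower. In IR/CHT it was smaller by -3.53 ± 0.46, -3.43 ± 0.35 and -2.54 ± 0.42, where the median over all genes was 0.19 and 16.8% were called lower. Between TV and MV, the change on CHT was smaller in the TV for HLA-DRA and HLA-DMA (-1.91 ± 0.52 and -1.85 ± 0.46), and CD74 was not called (-1.56 ± 0.46, adjusted p = 0.0542), where 2.14% of genes were called lower. HLA-DRA was not called with the rabbit as a block (-1.84, adjusted p = 0.0573) or without the filter (-1.92, adjusted p = 0.0529), and with DESeq2's size factors CD74 was called (-1.62, adjusted p = 0.0428). In IR/CHT all 3 were called (-1.69 ± 0.50, -2.05 ± 0.45 and -1.38 ± 0.44), where 6.32% of genes were called lower, and CD74 was not without the filter (-1.37, adjusted p = 0.0580). For IR/CHT against CHT, no difference between tissues was called for any member, so that the change of the AoV was not told apart from that of the Ao, MV and PV. TV and AoV were not compared in this way. The log2 differences were 0.58 to 0.89 for AoV minus Ao, -0.94 to -0.72 for MV minus AoV, -0.53 to -0.40 for PV minus AoV and -0.20 to 0.22 for TV minus MV, with 6.2%, 2.02%, 13.9% and 0% of genes called in either direction. The median over all genes was 0.11 in the PV minus AoV test, and 852 genes had an unadjusted p under 0.05 in the TV minus MV test.

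The 20 groups were ordered by mean CPM for each member. Ctrl of the Ao was the lowest and IR/CHT of the AoV the highest for all 3, and the 6 highest groups were CHT and IR/CHT of the Ao, AoV and MV. The groups below took different places between members, such as Ctrl of the AoV, which ranked 2 from the lowest for HLA-DRA, 9 for HLA-DMA and 5 for CD74. The mean of HLA-DRA went from 8.00 ± 5.77 CPM (SD, n = 7) in the lowest group to 489 ± 111 CPM (n = 7) in the highest, that of HLA-DMA from 1.32 ± 0.39 to 110 ± 25.1 CPM and that of CD74 from 32.2 ± 13.3 to 1681 ± 385 CPM. In 1 model of all libraries, most neighbours in the order did not differ beyond their spread. Some neighbours hold tissues of the same rabbits, which this model does not pair. For HLA-DRA the steps from Ctrl of the Ao to Ctrl of the AoV and from IR/CHT of the PV (59.6 ± 31.1 CPM) to CHT of the AoV (160.5 ± 47.3 CPM) had an adjusted p under 0.05, as did 60.0% and 33.2% of all genes between these groups. For HLA-DMA the steps were from Ctrl of the Ao to Ctrl of the TV (39.5% of genes), from IR/CHT of the PV to CHT of the MV (29.3%) and from IR/CHT of the MV to IR/CHT of the AoV (22.0%). For CD74 they were from Ctrl of the Ao to Lard of the TV (44.1%) and from IR/CHT of the PV to CHT of the MV (29.3%).

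The members kept close to each other. Over all libraries, the Pearson correlation of log2 CPM was 0.978 between HLA-DRA and CD74, 0.948 between HLA-DMA and CD74 and 0.944 between HLA-DRA and HLA-DMA. With the group means removed it was 0.871, 0.644 and 0.624. These are descriptions, and the points share rabbits and library preparation. Of ratios between 2 members, 0 of 75 passed an adjusted p of 0.05 in two-sided exact permutation tests of log2(CPM + 0.5), and 17 had an unadjusted p under 0.05. The smallest adjusted p was 0.0583. Among the ratios at that value, the log2 ratio of HLA-DRA to CD74 was higher in IR/CHT than in Ctrl in the AoV (difference 0.93, exact p = 0.00583) and on CHT than on Ctrl in the MV (0.45, exact p = 0.00217), and lower on Lard than on CHT in the MV (-0.54, exact p = 0.00117). In both MV comparisons this exact p is the smallest possible for the group sizes.

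By the highest mean correlation with the 3 members, out of 10877 genes with a symbol, the 5 genes most like them over all libraries were HLA-DQB2 (0.966), HCLS1 (0.956), NCKAP1L (0.95), CD80 (0.945) and ITGB2 (0.941). With the group means removed they were HLA-DQB2 (0.759), HCLS1 (0.739), NCKAP1L (0.708), PTPRC (0.687) and MATN1 (0.668). HLA-DQB2 encodes a class II beta chain and CD80 a costimulatory ligand for T cells. HCLS1, NCKAP1L, ITGB2 and PTPRC are genes of blood-derived cells, the last encoding CD45, while MATN1 encodes a matrix protein of cartilage.

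Of 11 further class II chain genes listed, 3 were found by symbol. HLA-DQB2 followed the members. It was at 4.70 to 15.6 CPM on chow in the Ao, at 97.8 to 209 CPM on CHT, at 12.0 to 60.1 CPM on Lard and at 139 to 430 CPM in IR/CHT. Its log2 fold change on CHT was 4.16 ± 0.36 in the Ao, 2.77 ± 0.32 in the AoV and 1.61 ± 0.36 in the MV, all called, and 0.10 and -0.08 in the PV and TV, not called. In IR/CHT against CHT it was called in the AoV (1.42 ± 0.32, adjusted p = 0.00171), and in IR/CHT against Ctrl in the PV it was 0.88 ± 0.27 without a call (adjusted p = 0.128). HLA-DPB1, another beta chain, and HLA-DOB, the beta chain of HLA-DO, which restrains HLA-DM, were low. HLA-DPB1 was at 0.0933 ± 0.0906 CPM (SD, n = 7) in the Ao on chow, with 3 libraries at 0, at 1.20 ± 0.68 CPM (n = 6) on CHT and at 2.14 ± 1.15 CPM (n = 7) in IR/CHT, and both differences were called. On Lard in the Ao its mean was 0.703 CPM, also called (log2 fold change 2.83, adjusted p = 0.0193). On CHT in the AoV the log2 difference of HLA-DPB1 from Ctrl was 1.35 ± 0.47, without a call (adjusted p = 0.0553). HLA-DOB was not called on CHT in any tissue. It was called in IR/CHT against Ctrl in the Ao (1.34 ± 0.46) and the AoV (2.63 ± 0.52), and against CHT in the AoV (1.65 ± 0.52), where its mean was 4.01 CPM against 1.27 CPM. The class II beta chain genes are close copies, and reads could have been split between them in counting.

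CIITA is the master coactivator of class II genes. In the Ao it was at 0.193 to 3.68 CPM on chow, at 2.78 to 19.7 CPM on CHT, at 0 to 5.15 CPM on Lard and at 6.69 to 23.9 CPM in IR/CHT. The log2 fold change from Ctrl was 2.58 ± 0.69 on CHT and 3.36 ± 0.69 in IR/CHT, both called. On CHT the log2 difference was 1.16 ± 0.45 in the AoV and 1.39 ± 0.49 in the MV, not called (adjusted p = 0.0843 and 0.0964). In IR/CHT it was called in the AoV (2.82 ± 0.46) and the MV (1.91 ± 0.48), and in IR/CHT against CHT in the AoV (1.66 ± 0.46, adjusted p = 0.00947), from 3.91 to 16.3 CPM to 17.0 to 52.6 CPM without overlap. In the PV it was 1.92 ± 0.57 in IR/CHT without a call (adjusted p = 0.109). RFX5, a DNA-binding factor of the class II promoter complex, was not called in any of 25 comparisons, with group means between 13.6 and 37.6 CPM. Of the 7 regulators found, CIITA was the 1 called higher on CHT in the Ao, where 14.2% of all genes were. By edgeR, 0 were called on CHT in the AoV and MV, where 11.9% and 5.62% of all genes were called in either direction. In IR/CHT against Ctrl, NFYB (-0.72 ± 0.15 in the Ao) and RFXAP (-0.65 ± 0.18 in the AoV), subunits of the same promoter complex, were called lower. So were 12.2% of all genes in the Ao and 21.7% in the AoV.

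**Figure D3:**
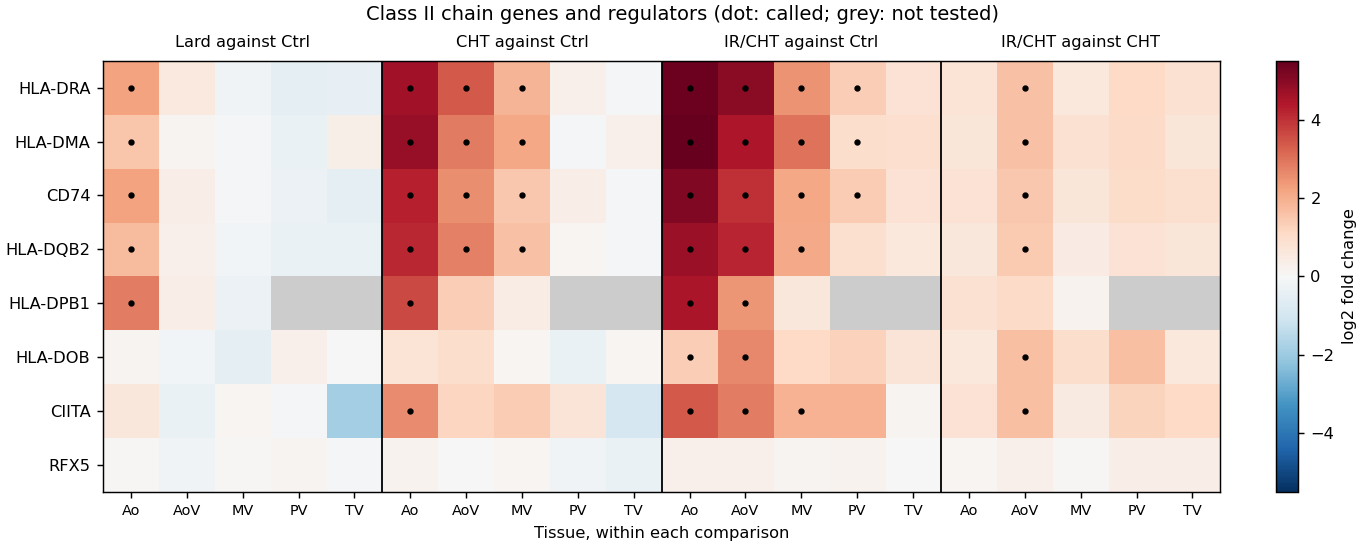
Log2 fold change (colour) of the members, the 3 other class II chain genes found, CIITA and RFX5, with tissues as columns within each comparison, a dot for a called change and grey where the gene was not tested. HLA-DQB2 is called wherever HLA-DRA, HLA-DMA and CD74 are, other than in IR/CHT against Ctrl in the PV, and RFX5 carries no dot.

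Genes of class II peptide loading and processing were counted next, with HLA-DOB, one of the chain genes above, among them. Of 10 found, 6, 6 and 5 were called higher on CHT in the Ao, AoV and MV and none lower, with a median log2 fold change of 0.98, 1.10 and 0.78, where the median of all genes was -0.04, -0.02 and -0.02 and 14.2%, 8.42% and 4.98% of them were called higher. CTSS, the cathepsin that trims CD74, rose by 4.30 on the log2 scale in the Ao (from 9.78 to 190 CPM on average), by 4.13 in the AoV (9.52 to 165.9 CPM) and by 3.41 in the MV (13.3 to 142 CPM). CTSB, another lysosomal cathepsin, rose by 2.78, 2.40 and 1.83. In IR/CHT against CHT in the AoV, 7 of 10 were called higher, beside 9.9% of all genes. Those with the smallest p were CTSZ (1.61), CTSB (1.71) and LGMN, the asparaginyl endopeptidase (1.17), and CTSS rose by 1.95. Against Ctrl, IR/CHT in the AoV had 7 called higher (21.1% of all genes) and CD82, a tetraspanin, lower (-1.30, 21.7% of all genes). On Lard against Ctrl, CTSS was the 1 called in the Ao (1.49, adjusted p = 0.0118), where 2.57% of all genes were called higher. None was called in the valves, where 0.234% of all genes in the AoV and 0% in the MV, PV and TV were called in either direction. In the PV and TV, none of the 10 was called in any comparison. With at most 0.706% of all genes called there in either direction, this does not set the 10 apart.

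A list of costimulation genes, whose products act between T cells and the cells that present to them, and of class II and CD74 partners (MIF, CD44 and CXCR4 among them) was called higher on CHT for 7 of 9 tested in the Ao, 6 of 8 in the AoV and 6 of 8 in the MV, with a median log2 fold change of 2.79, 1.35 and 1.38, where 14.2%, 8.42% and 4.98% of all genes were called higher. CD86, a costimulatory ligand, was at 13.9 CPM on CHT against 0.686 CPM on chow in the Ao (log2 fold change 4.34), at 16.3 against 2.23 CPM in the AoV (2.88) and at 14.7 against 4.41 CPM in the MV (1.72). CD28, its receptor on T cells, was at 6.21 against 0.0101 CPM in the Ao, 7.61 against 0.0581 CPM in the AoV and 4.47 against 0.103 CPM in the MV. The summed T cell markers, given below, overlapped between CHT and chow in these tissues. CXCR4, a chemokine receptor that can pair with CD74, rose by 5.00 in the Ao, and CD44, an adhesion receptor that pairs with CD74, by 1.04 in the MV. On Lard in the Ao, 2 of 9 were called, namely CD80 (log2 fold change 1.96) and CD28 (0.354 CPM). There 2.57% of all genes were called higher. In IR/CHT against CHT in the AoV, 5 of 8 were called, where 9.9% of all genes were called higher. Those with the smallest p were CD274, encoding PD-L1 (1.32), CD44 (0.92) and CD86 (1.21).

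Interferon gamma is a known inducer of CIITA. Of the genes of the interferon gamma axis tested, 7 of 10 were called higher on CHT in the Ao, 4 of 8 in the AoV and 3 of 8 in the MV, with median log2 fold changes of 1.44, 1.19 and 0.54, against the same shares of all genes. CXCL10, an interferon-induced chemokine, was at 10.8 against 0.316 CPM in the Ao (log2 fold change 5.09) and at 8.46 against 0.822 CPM in the MV (3.34). IFNGR1 and IFNGR2, the receptor chains, rose by 0.86 and 2.03 in the Ao and by 1.08 and 1.53 in the AoV, and IRF8, a factor of myeloid cells, rose by 2.23 in the MV. In IR/CHT against CHT in the AoV 5 of 8 were called (9.9% of all genes), among them CXCL10 (2.64, 12.4 against 1.97 CPM) and IRF8 (1.79). Of MHC class I genes, 6 of 9 were called higher on CHT in the Ao, 3 of 9 in the AoV and 3 of 9 in the MV, with medians of 0.97, 0.47 and 0.44, again against 14.2%, 8.42% and 4.98% of all genes. B2M, the light chain of class I, changed by 1.63, 1.61 and 0.74 and PSMB8, an immunoproteasome subunit, by 3.27, 1.88 and 1.26 in the Ao, AoV and MV. In the PV and TV, none of the interferon, costimulation or class I genes tested was called in any of the 5 comparisons. At most 0.706% of all genes were called there in either direction, so this does not set these genes apart.

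Markers of macrophages, which make class II, were also higher on average on CHT and in IR/CHT in the Ao, AoV and MV. The 14 macrophage markers found summed to 301 to 456 CPM in the Ao on chow, 699 to 1530 CPM on CHT, 365 to 674 CPM on Lard and 1011 to 2874 CPM in IR/CHT. In the AoV the ranges were 255 to 712, 959 to 1410, 195.6 to 828 and 2560 to 3245 CPM and in the MV 284 to 747, 737 to 1345, 243.6 to 824 and 1015 to 1929 CPM, in the same order. Of the 14, 11, 8 and 11 were called higher on CHT in the Ao, AoV and MV, 10 in IR/CHT against CHT in the AoV and 7 on Lard in the Ao, where 14.2%, 8.42%, 4.98%, 9.9% and 2.57% of all genes were. CD68, a lysosomal protein of macrophages, was at 216 against 12.1 CPM on CHT in the Ao, 205 against 26.4 CPM in the AoV and 133 against 21.0 CPM in the MV, while MRC1 and CD163, markers of resident macrophages, were not called there. Their part in the members' change was not tested.

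In the PV and TV the macrophage markers were present on chow at 616 to 768 and 606 to 834 CPM, above all chow libraries of the Ao and overlapping those of the AoV and MV. Their mean sum on chow was 707 CPM in the PV and 700 CPM in the TV against 499 CPM in the MV. Each member, by contrast, had its highest chow mean in the MV. In the PV and TV the markers were at 571.9 to 876 and 601 to 914 CPM on CHT and at 336 to 992 and 534 to 1034 CPM in IR/CHT. None of the 14 was called on CHT in the PV and none of 13 in the TV. In IR/CHT against Ctrl in the PV, where the members were called, 3 of 14 were (0.581% of all genes), namely MARCO (0.137 to 2.45 CPM), MERTK (log2 fold change 0.76) and MSR1 (1.57), while CD68 (0.55) and CD14 (0.92) were not. In IR/CHT of the TV, 1 of 13 was called, which was CD14 (1.03), where 0.231% of all genes were called in either direction.

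**Figure D4:**
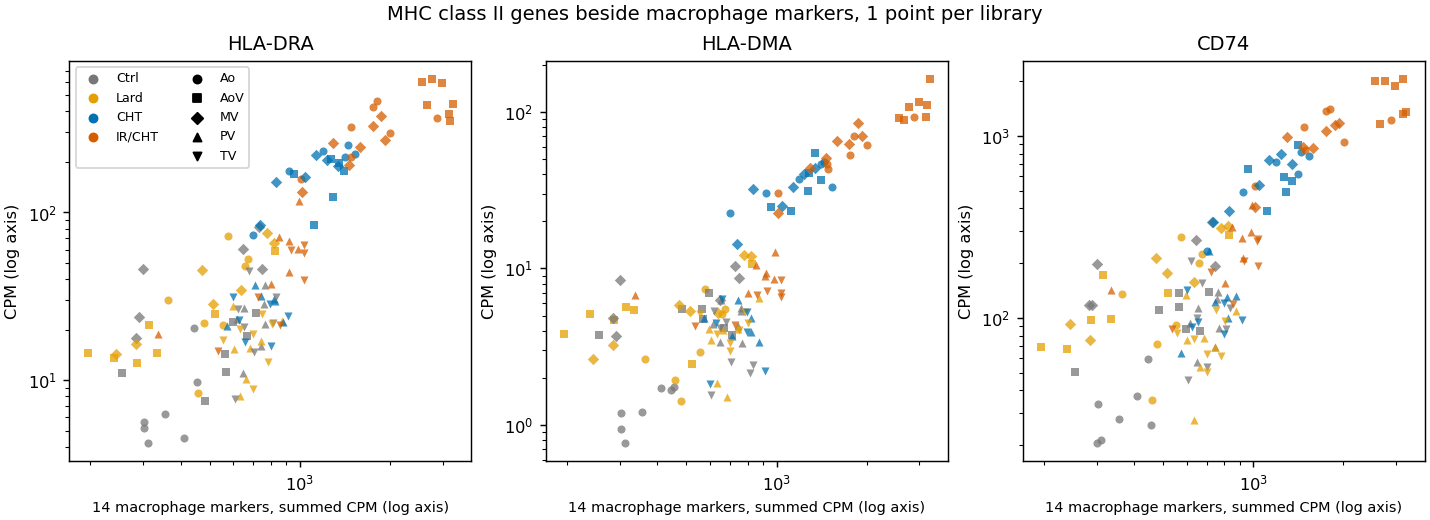
CPM of HLA-DRA, HLA-DMA and CD74 (log axis) against the summed CPM of the 14 macrophage markers found (log axis), with 1 point per library, colours for treatments and symbols for tissues. CHT and IR/CHT libraries of the Ao, AoV and MV lie at the upper right, and those of the PV and TV mostly lie lower, with the IR/CHT libraries of the PV above the chow libraries of the PV for HLA-DMA and CD74.

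Other cells that carry class II were seen by fewer markers. Their counts stand beside 14.2%, 8.42% and 4.98% of all genes called higher on CHT in the Ao, AoV and MV and 9.9% in IR/CHT against CHT in the AoV. Of 11 dendritic cell markers, 5 were found and 3 tested, and FLT3 and ITGAX were called higher on CHT in the Ao, AoV and MV, with the summed level going from 0.576 to 3.02 CPM on chow to 28.6 to 101 CPM in the Ao, from 1.57 to 5.52 to 20.8 to 83.0 CPM in the AoV and from 4.75 to 7.62 to 15.6 to 53.9 CPM in the MV. XCR1 was at 0 in all Ctrl libraries of the Ao. The summed B cell markers went from 1.65 to 9.04 CPM on chow to 26.3 to 67.4 CPM on CHT in the Ao, where 1 of 3 tested was called. That gene was CD22, at 43.9 against 0.999 CPM, while PAX5, the defining factor of B cells, was at 0.801 against 0.445 CPM and not called. On CHT in the AoV 2 of 4 B cell markers and in the MV 1 of 4 were called, CD22 among them in both. The summed T cell markers were at 1.99 to 8.38 CPM on CHT against 0.254 to 3.62 CPM on chow in the Ao. They were at 1.27 to 8.38 against 0.783 to 4.91 CPM in the AoV and at 1.16 to 7.25 against 1.07 to 2.695 CPM in the MV. In IR/CHT against CHT in the AoV 3 of 4 tested were called higher, at 8.12 to 32.7 CPM against 1.27 to 8.38 CPM. Of neutrophil markers, 0 of 2, 0 of 4 and 0 of 2 were called on CHT in the Ao, AoV and MV. Their part in the members' change was not tested.

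Markers of the tissue itself were checked against the labels. Smooth muscle markers summed to 81760 to 115500 CPM in the Ao on chow, 31610 to 81430 CPM on CHT and 11400 to 60970 CPM in IR/CHT, while in the valves they were at 2675 CPM or less other than in the PV library of rabbit L28376. Within that range they went in the MV from 124 to 345 CPM on chow to 355 to 1242 CPM on CHT without overlap, and were at 169.2 to 1224 CPM in IR/CHT, which overlapped with chow. On CHT in the MV 2 of 5 were called higher (4.98% of all genes), namely ACTA2 (1.70) and MYH11 (3.32). In the AoV they went from 448 to 1287 CPM on chow to 822 to 2675 CPM in IR/CHT, where 2 of 5 were called higher and 3 lower (21.1% and 21.7% of all genes). In the Ao, 3 of 5 were called lower on CHT and 5 of 5 in IR/CHT, where 5.18% and 12.2% of all genes were. The 5 markers of valve interstitial cells and fibroblasts found summed to 12910 to 24030 CPM in the Ao and 8142 CPM or more in all valve groups. One of them was called higher on CHT in the Ao and none in the AoV and MV. Endothelium markers were called higher for 8 of 9 on CHT in the Ao and 0 of 9 in the AoV and MV (14.2%, 8.42% and 4.98% of all genes), with a summed level of 202 to 1055 CPM in the Ao on CHT against 122 to 235.1 CPM on chow. Heart muscle markers were lower on CHT in the AoV for 5 of 6 tested (3.48% of all genes), at 4.89 to 54.3 CPM against 52.9 to 2088 CPM on chow. The part of these changes in the members' levels, which are relative to all RNA of a library, was not tested.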

How the data were processed

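RNA-seq libraries, 1 per tissue sample, were analysed from the authors' 2 deposited tables of raw gene counts. Per the study's methods, RNA was prepared with a stranded total RNA kit, demultiplexed with bcl2fastq 2.20 (submitters' processing notes), mapped to OryCun2.0 and counted on Ensembl genes by the nf-core/rnaseq pipeline. The study reports the pipeline's default settings apart from trimming options. Whether counting used strand is not spelled out in the sources used here.

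Groups follow the sample labels, and rabbits the number that starts a library's name. In each tissue, genes were filtered by filterByExpr (14450 to 15408 kept), scaled by TMM and fitted with edgeR 4.0.16 (quasi-likelihood, robust) in R 4.3.3 over the 4 treatments without covariates, and p-values were adjusted by Benjamini-Hochberg over all genes tested. Calls need an adjusted p under 0.05 and a fold change over 1.5, and interactions the adjusted p alone. The script was tested on simulated data. Ratios were tested by two-sided exact permutation (SciPy 1.17.1), with smallest possible p of 0.00217 for 6 against 6, 0.00117 for 6 against 7 and 0.000583 for 7 against 7 libraries. Likeness used log2 CPM with a prior count of 2.

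Tissues of one rabbit were paired: with group means removed, profiles of the same rabbit correlated with a median of 0.439 for MV and AoV (other rabbits -0.0143) and 0.175 to 0.285 for the other pairs of tissues (at most 0.00712).

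Named genes were the members, the class II chains, CIITA, RFX5, up to 3 called genes of smallest p per list and comparison, and the 5 most alike genes. One gene that this rule names is not reported here. CD82, MARCO, MERTK, MSR1 and the named cell type markers were chosen after their values were seen. The members and lists were chosen with earlier results of these data known. Alternatives were DESeq2 1.42.0, its size factors, no filter, 2 groups, 1 model, plates, leaving out each library, the rabbit block and a pseudocount of 2 CPM.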

Additional observations from a re-analysis of the deposited data

Results flagged for a closer look

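In 6 of 60 group levels, 1 library stood apart from the rest by Dixon's test, of which chance flags about 1 in 20. On chow in the Ao, rabbit L08273 was high for HLA-DRA (20.4 CPM, next 9.75) and for CD74 (59.1 CPM, next 37.1). On Lard in the AoV, rabbit L09448 was high for HLA-DRA (58.8 CPM, next 24.9) and for HLA-DMA (10.7 CPM, next 5.69). In IR/CHT, rabbit L28395 was high for HLA-DMA in the AoV (161.3 CPM, next 116), and rabbit L28376 was low for CD74 in the MV (406 CPM, next 860.4).

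In 18 of 36 interaction tests by edgeR the change of a member differed between tissues (adjusted p under 0.05). Over all genes, 0% to 40.2% were called in either direction in these tests, with the highest share for PV minus AoV in IR/CHT against Ctrl. The log2 differences of the changes on CHT were -1.79 for CD74 and -2.02 for HLA-DMA in AoV minus Ao, -2.14 for CD74, -3.07 for HLA-DRA and -2.89 for HLA-DMA in PV minus AoV, and -1.91 for HLA-DRA and -1.85 for HLA-DMA in TV minus MV. In IR/CHT against Ctrl they were -1.21 for CD74 and -1.13 for HLA-DMA in AoV minus Ao, -1.82 for CD74, -2.46 for HLA-DRA and -1.44 for HLA-DMA in MV minus AoV, -2.54 for CD74, -3.53 for HLA-DRA and -3.43 for HLA-DMA in PV minus AoV, and -1.38 for CD74, -1.69 for HLA-DRA and -2.05 for HLA-DMA in TV minus MV.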

How the results depend on the processing

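Of 36 called treatment results, 28 kept their direction and call under every alternative other than leaving out a library, and 33 of 36 when each library was left out in turn. The cause of the exceptions was not tested. In the Ao, Lard against Ctrl was lost for HLA-DRA, HLA-DMA and CD74 with only both groups in the model (2.22, 1.55 and 2.22). In the MV, CD74 Lard against CHT was lost on plate 1 alone (-1.66), HLA-DRA IR/CHT against Ctrl on plate 2 alone (1.85), and Lard against Ctrl turned up on plate 1 alone (0.21, 0.084 and 0.23). In the PV, IR/CHT against Ctrl was lost without the filter for HLA-DRA and HLA-DMA (1.34 and 0.97), with only both groups for HLA-DRA (1.34), in 1 model for HLA-DMA (0.97) and on plate 2 alone for all 3 (0.31, 0.70 and 0.72), while DESeq2 called IR/CHT against CHT (1.07, 1.03 and 1.02). Plates alone also gave, for HLA-DMA, -0.19 for Lard against Ctrl in the AoV (plate 2), 0.14 for CHT against Ctrl in the PV (plate 1) and 0.24 for Lard against CHT in the PV (plate 2). In the TV, plate 1 alone called IR/CHT against Ctrl (1.51, 1.504 and 1.54) and gave 0.051 and 0.18 for HLA-DRA and CD74 on CHT and -0.26 for HLA-DMA in Lard against CHT. Plate 2 alone gave -0.56 and -0.055 for HLA-DMA on CHT and Lard, -0.65 and -0.50 for HLA-DRA and CD74 in IR/CHT against Ctrl and -0.34 for HLA-DRA in IR/CHT against CHT.

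All 15 calls between tissues on chow held under the alternatives run. For calls against the Ao these did not include the plate, as that alternative was run on the valves only. Added calls were HLA-DMA TV against AoV with DESeq2's size factors (-0.63), and with the plate as a covariate in the valves CD74 MV against AoV (1.09), HLA-DRA PV and TV against AoV (0.82 and 0.77) and CD74 TV against MV (-0.88). That covariate turned HLA-DMA and CD74 PV against AoV (0.049 and 0.16) and HLA-DRA TV against PV (-0.046). The rabbit as a replicate block added CD74 MV against AoV (1.001), HLA-DMA TV against AoV (-0.65), HLA-DRA and HLA-DMA PV against MV (-0.87 and -0.60) and CD74 TV against MV (-1.02), and turned CD74 TV against AoV (-0.024) and HLA-DRA TV against PV (-0.022). Of the interactions, the block added HLA-DRA and CD74 MV minus AoV on CHT (-1.36 and -1.10) and lost HLA-DRA TV minus MV on CHT (-1.84). It changed no other call. DESeq2's size factors lost CD74 AoV minus Ao in IR/CHT (-1.12) and added CD74 TV minus MV on CHT (-1.62). Without the filter, HLA-DMA and CD74 AoV minus Ao in IR/CHT (-1.001 and -1.08), HLA-DRA TV minus MV on CHT (-1.92) and CD74 TV minus MV in IR/CHT (-1.37) were lost.

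Leaving out 1 library at a time, IR/CHT against Ctrl in the PV ranged from 1.25 to 1.51 for CD74 (lost without Ctrl L167 or IR/CHT L176), from 1.10 to 1.498 for HLA-DRA (lost in 8 of 14) and from 0.87 to 1.06 for HLA-DMA (lost in 12 of 14). In the TV it ranged from 0.64 to 1.06 for CD74 and from 0.82 to 1.16 for HLA-DMA, both called without Ctrl L168. Results not called that changed sign were CHT against Ctrl in the TV (CD74 -0.24 to 0.19, HLA-DRA -0.22 to 0.13) and PV (HLA-DMA -0.19 to 0.016), Lard against Ctrl in the MV (CD74 -0.26 to 0.10, HLA-DMA -0.31 to 0.050, HLA-DRA -0.43 to 0.039) and AoV (HLA-DMA -0.12 to 0.27), and Lard against CHT in the TV (HLA-DMA -0.11 to 0.22).

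With a pseudocount of 2 CPM, 0 of 75 ratios were called as well (19 at an unadjusted p under 0.05), and 11 not called changed sign. HLA-DRA over HLA-DMA was then 0.0099 for IR/CHT against CHT in the AoV, 0.079 for CHT against Ctrl and -0.18 for Lard against CHT in the MV, 0.087 for IR/CHT against CHT in the PV and 0.029 for IR/CHT against Ctrl in the TV. HLA-DRA over CD74 was -0.092 for Lard against Ctrl in the Ao. HLA-DMA over CD74 was -0.64 for CHT against Ctrl in the Ao, -0.15 and -0.030 for CHT and IR/CHT against Ctrl in the AoV, 0.020 for Lard against Ctrl in the MV and -0.16 for IR/CHT against Ctrl in the TV. Scaling by totals alone in place of TMM left the lowest, the highest and the 6 highest groups of each member in place. HLA-DMA, with 12 read pairs in its lowest library, is the member whose low values counting error limits most.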
